A study of Homo sapiens with 18 samples.

Results

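The ligands and receptors of the tumour necrosis factor (TNF) superfamily, with the adaptors and proteases that carry the death receptor signal, were followed in 3 triple-negative breast cancer (TNBC) cell lines after silencing of ASAP1. Members were chosen by symbol, with earlier results of these data known. They were every probe of a gene whose symbol begins with TNFRSF or TNFSF, plus those of TNF, LTA, LTB, LTBR, FAS, FASLG, CD40, CD70, CD27, NGFR, EDA2R, TRADD, FADD, RIPK1, CASP8 and CFLAR. This gave 58 of 21111 probes and 48 of 19289 genes. The cells were BT549 and Hs578T, which are mesenchymal-like TNBC lines, and SUM149PT, a basal-like line. Each line was transfected for 72 h with 50 nM of a pool of siRNAs against ASAP1 (siASAP1), which encodes an Arf GTPase-activating protein, or with a control pool of kinase siRNAs (siCtrl), so the controls had also been transfected with siRNA. RNA was measured by TempO-Seq, a targeted assay in which a pair of detector oligos is ligated on its RNA and the ligated products are counted by sequencing. Each of the 6 groups held 3 libraries, described as biological triplicates. Levels are given as normalized counts, which are reads divided by the library's size factor, and a probe is written with its number where a gene has more than 1. Counts of different probes are not comparable as amounts of RNA, since each probe pair has its own efficiency.

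TNF superfamily ligands are trimeric proteins, made mostly as membrane proteins that can be shed, and they act on receptors with cysteine-rich extracellular repeats. Receptors with an intracellular death domain, such as FAS and the TRAIL receptors TNFRSF10A and TNFRSF10B, bind FADD or TRADD and can activate caspase-8, which CFLAR restrains. Receptors without a death domain recruit TRAF adaptors and lead to the canonical and non-canonical NF-kB pathways, whose targets include several genes of the same family. In epithelial tumours the family is known both for apoptosis and for inflammatory signalling.

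Promoters are shown for the genes on which the differences described below turn: TNFRSF1B, TNFSF15 and TNFSF13 of the family, and BIRC3, an inhibitor of apoptosis that binds TRAF adaptors. Each sequence runs 5′ to 3′ on the gene's own strand, from 250 bases before the RefSeq start to 50 after it (GRCh38.p14). Capitals mark matches to a canonical NF-kB motif or to the AP-1 motif TGANTCA, searched on both strands. TNFRSF1B lies at chr1:12166741-12167040 on the plus strand, TNFSF15 at chr9:114792481-114792780 on the minus strand, TNFSF13 at chr17:7558032-7558331 on the plus strand, and BIRC3 at chr11:102317234-102317533 on the plus strand.
TNFRSF1B: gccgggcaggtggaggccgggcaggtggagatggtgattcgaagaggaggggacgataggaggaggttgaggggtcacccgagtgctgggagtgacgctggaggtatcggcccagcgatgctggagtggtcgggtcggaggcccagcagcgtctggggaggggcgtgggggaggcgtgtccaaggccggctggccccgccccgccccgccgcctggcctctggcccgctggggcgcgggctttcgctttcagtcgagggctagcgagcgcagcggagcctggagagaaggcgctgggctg
TNFSF15: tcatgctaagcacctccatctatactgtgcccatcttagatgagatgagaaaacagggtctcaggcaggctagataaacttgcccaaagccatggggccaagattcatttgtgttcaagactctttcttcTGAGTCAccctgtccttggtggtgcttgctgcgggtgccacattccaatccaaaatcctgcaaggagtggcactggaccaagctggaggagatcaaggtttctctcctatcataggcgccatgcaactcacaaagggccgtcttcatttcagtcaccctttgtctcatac
TNFSF13: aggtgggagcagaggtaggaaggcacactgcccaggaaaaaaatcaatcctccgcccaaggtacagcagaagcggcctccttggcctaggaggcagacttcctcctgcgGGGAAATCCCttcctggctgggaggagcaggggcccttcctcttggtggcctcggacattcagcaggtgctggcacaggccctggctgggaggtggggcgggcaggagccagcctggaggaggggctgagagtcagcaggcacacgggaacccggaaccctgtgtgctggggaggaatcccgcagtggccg
BIRC3: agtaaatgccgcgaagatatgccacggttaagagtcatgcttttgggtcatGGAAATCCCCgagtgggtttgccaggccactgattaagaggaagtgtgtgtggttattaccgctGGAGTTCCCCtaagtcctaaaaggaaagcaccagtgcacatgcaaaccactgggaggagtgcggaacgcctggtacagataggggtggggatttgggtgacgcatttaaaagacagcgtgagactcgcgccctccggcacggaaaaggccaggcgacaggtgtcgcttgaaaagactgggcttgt
The TNFRSF1B window had no match to either motif. In TNFSF15 the capitals are an AP-1 match, and the RefSeq start used there lies inside the gene as GENCODE 29 draws it. TNFSF13 had 1 NF-kB match in the window shown, the one with a match among its 2 windows, and BIRC3 had 2. Of all 35116 promoter windows of this length, 5.91% held the NF-kB motif and 7.71% the AP-1 motif. Among the 50 windows of the 33 member genes in the table, 11 (22.0%) held the NF-kB motif and 13 (26.0%) the AP-1 motif. These are matches of letters only, and binding was not measured.

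Most ligands of the family were at or near the detection limit in these cells. No read was found in any library for 10 probes, and 7 genes had no read by any of their probes: TNF, LTA, LTB, TNFSF10, TNFSF11, EDA2R and TNFRSF13B. TNFSF10, the TRAIL ligand, had 3 such probes. With 0 reads the floor of 3 reads allows a normalized count of 1.73 to 4.8 per library, which covers counting error only. A further 22 probes were read but passed no filter, and their highest normalized count was 33.1. They were the probes of CD27, CD40, NGFR, TNFRSF4, TNFRSF6B, TNFRSF8, TNFRSF10C, TNFRSF11A, TNFRSF13C, TNFRSF14, TNFRSF17, TNFSF4, TNFSF8, TNFSF9, TNFSF13B, TNFSF14 and TNFSF18, and further probes of FASLG, CFLAR, TNFRSF25 and TNFSF13. The minimum of a mean normalized count of 10 was met in at least 1 comparison by 26 probes of 23 genes. By role, these were 7 of 9 probes of receptors with a death domain, 7 of 18 of other receptors, 2 of 4 of decoy receptors, 4 of 20 of ligands and 6 of 7 of adaptors and effectors. CD40, a receptor of the non-canonical pathway, had 6 reads, all in 1 library.

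**Figure D1:**
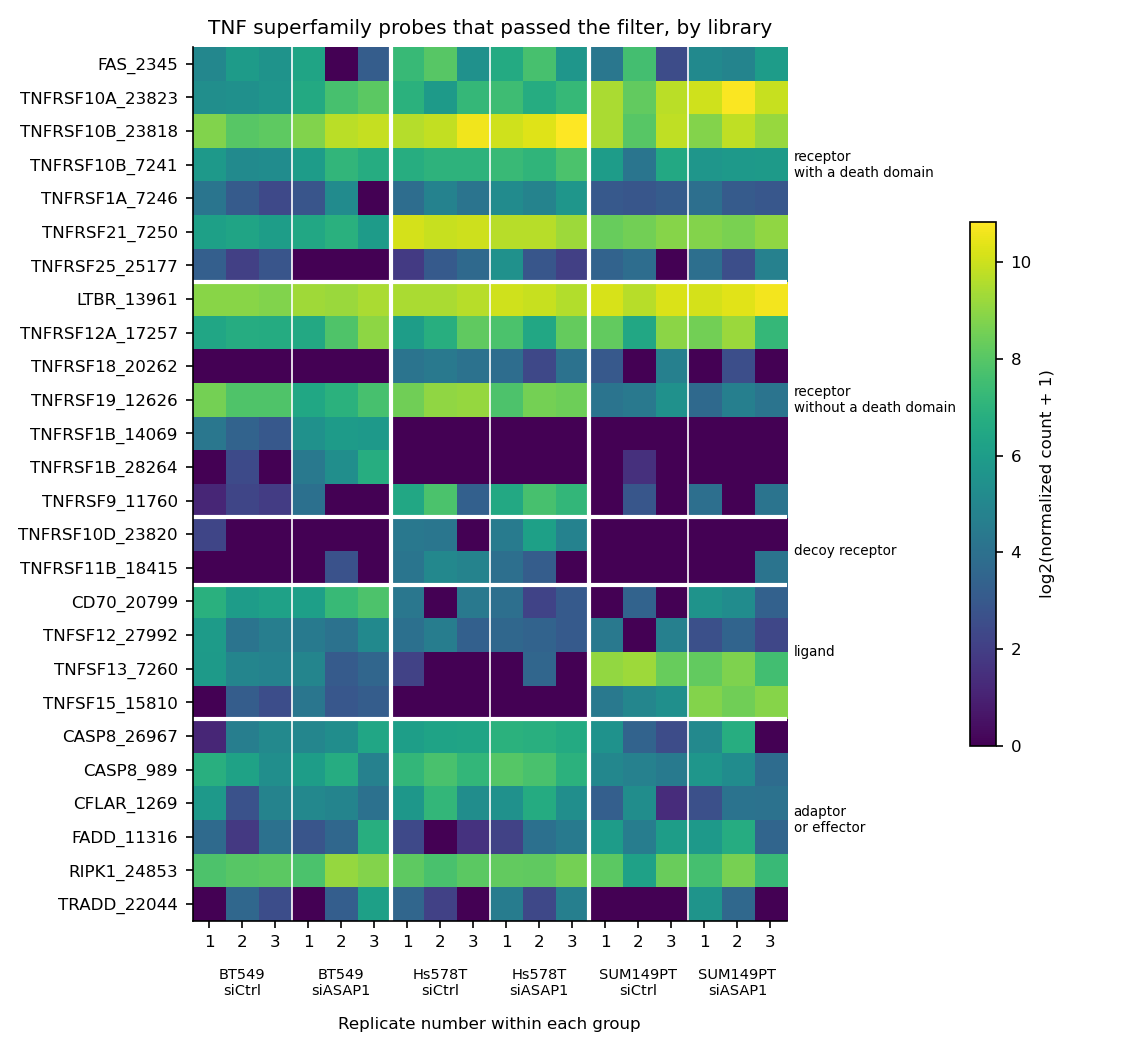
Heat map of log2(normalized count + 1) for the 26 TNF superfamily probes that met the minimum in at least 1 comparison (rows, grouped by role) in the 18 libraries (columns, by cell line, treatment and replicate number). TNFRSF1B was read almost only in BT549, and TNFSF15 was brightest in the SUM149PT siASAP1 libraries.

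ASAP1 itself checked the labels. In BT549 its normalized counts were 1107, 966 and 944 in the siCtrl libraries and 367, 729.7 and 783 after siASAP1, and in Hs578T 1641, 1414 and 2697 with siCtrl and 782, 825 and 1261 with siASAP1. In SUM149PT they were 1087, 189 and 1314 with siCtrl and 282, 468 and 184 with siASAP1. The groups did not overlap in BT549 and Hs578T, whereas the library labelled SUM149PT siCtrl replicate 2 lay at the level of the siASAP1 libraries. Over 18 libraries the Log2 FC was -0.96 (SE 0.31, adjusted p = 0.13), and without that library it was -1.20 (adjusted p = 0.019). Within single lines the Log2 FC was -0.75 (SE 0.39) in BT549, -0.98 (SE 0.32) in Hs578T and -1.16 (SE 0.77) in SUM149PT. By the limits used below for members, ASAP1 was thus called in no line. Without SUM149PT siCtrl replicate 2 it was called in that line, at -2.04. In Hs578T it was called in 3 of 6 fits without 1 library. Library depth was 4.63 M to 12.5 M reads, with a median of 6.63 M (M, 1e6 reads). The summed level of 6 epithelial markers was 29700 to 55800 in SUM149PT and 48.7 to 414 in the other lines, and lymphoid and myeloid markers summed to at most 70.1 in any library. Probes of 5 mesenchymal marker genes summed to 57100 to 265000 in BT549 and Hs578T and to 5710 to 11800 in SUM149PT. Not every marker followed the sum. CDH2 was at 1434 to 2325 in SUM149PT and 253 to 691 in BT549, and ZEB1 was read in Hs578T siCtrl replicate 1 alone. SUM149PT siCtrl replicate 2 and BT549 siASAP1 replicate 1 stood apart in several members, and results that change without them are given both ways.

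In BT549, silencing of ASAP1 was accompanied by higher RNA of TNFRSF1B and of both TRAIL receptors, and by lower RNA of TNFRSF19. With limits of 0.05 on the unadjusted limma p and 1 on the absolute Log2 FC, used for the whole table, 6 of 20 member probes tested were called, 5 higher and 1 lower. By gene these were 4 of 17. Of all probes tested in BT549, 6.97% were called and 3.28% were called higher. None passed a Benjamini-Hochberg adjusted p of 0.05 in limma, by which 0 of all 9666 probes passed, and the smallest adjusted p among members was 0.39, with 6 at an unadjusted p under 0.05. The median Log2 FC of the members tested was 0.65, against -0.0015 over all probes. These counts and medians describe the probes that met the minimum, not all members. Mesenchymal markers summed to 60500 to 110000 in the BT549 siASAP1 libraries and 57100 to 58800 with siCtrl. CDH2 and each FN1 probe were higher in every siASAP1 library, both SPARC probes were lower, and the VIM probes overlapped. The part of these markers in the results was not tested.

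TNFRSF1B, at chr1:12167003-12209228, encodes TNF receptor 2, which lacks a death domain and signals through TRAF2. Probe TNFRSF1B_14069 gave 18.7, 10.1 and 7.01 in the BT549 siCtrl libraries and 43.6, 61.4 and 55.7 after siASAP1. The lowest siASAP1 library lay above the highest siCtrl library. The Log2 FC was 2.16 (SE 0.65, adjusted p = 0.53). Probe TNFRSF1B_28264 gave 0, 4.40 and 0 with siCtrl and 19.6, 39.6 and 108 with siASAP1, again without overlap. The second probe, also among the 6 called, met the minimum only through its siASAP1 libraries, so that its fitted Log2 FC of 4.68 (SE 1.18) depends on few control reads and is given as a description. TNFRSF1B_14069 was called without each of the 6 libraries in turn, with a Log2 FC of 1.87 to 2.52. In Hs578T the gene was at 0 in every library by both probes. In SUM149PT it was at 0 in every library by the former probe, and by the latter in all but siCtrl replicate 2, with 2 reads. The BT549 siASAP1 mean by TNFRSF1B_14069 was thus at least 15.8-fold higher than the Hs578T siASAP1 libraries and at least 13.5-fold higher than those of SUM149PT, taking the floor of 3 reads per library.

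The death receptors for TRAIL, TNFRSF10A and TNFRSF10B, were both called higher in BT549, while their ligand was not detected. They lie in one cluster, at chr8:23190452-23225126 and chr8:23020133-23069179, on the minus strand. TNFRSF10A had normalized counts of 39.9, 42.8 and 48.4 with siCtrl and 95.1, 203 and 271 with siASAP1. The siCtrl libraries were tightly grouped and every siASAP1 library was above them. Its Log2 FC was 1.97 (SE 0.51, adjusted p = 0.4), and it was called without each library in turn, at 1.65 to 2.40. TNFRSF10B was read by 2 probes. TNFRSF10B_23818 gave 435, 255 and 279 with siCtrl and 432, 838 and 944 with siASAP1, where siASAP1 replicate 1 lay just below the highest control. TNFRSF10B_7241 gave 54.9, 35.2 and 37.2 with siCtrl and 62.2, 139 and 102 with siASAP1, without overlap. The Log2 FC was 1.15 (SE 0.43, adjusted p = 0.6) by the former and 1.19 (SE 0.51, adjusted p = 0.63) by the latter. Both calls were lost without siASAP1 replicate 2 or 3, or without siCtrl replicate 2 or 3, and the Log2 FC stayed between 0.92 and 1.498 over all libraries left out.

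TNFRSF19, also known as TROY, is a receptor without a death domain and lies at chr13:23570370-23676104. Its counts in BT549 were 379, 228 and 231 with siCtrl and 87.1, 119.9 and 203 with siASAP1, so each siASAP1 library was lower than each control. The Log2 FC was -1.07 (SE 0.46, adjusted p = 0.63). The call held only without siASAP1 replicate 3 and was lost without any of the other 5 libraries, with a Log2 FC of -1.40 to -0.79. It was also lost with quantile normalization or with the replicate number as a block.

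LTBR, the lymphotoxin-beta receptor of the non-canonical pathway, was higher in every BT549 siASAP1 library, at 618, 593 and 699 against 478, 484 and 441, but did not pass, at a Log2 FC of 0.44 (SE 0.34, adjusted p = 0.7). Non-overlapping groups were found for 6 of the 20 member probes in BT549, 5 with siASAP1 higher and 1 lower, against 13.9% of all probes. The 6 include both TNFRSF1B probes. TNFRSF12A, the receptor of TWEAK, gave 84.9, 104 and 101 with siCtrl and 91.6, 232 and 501 with siASAP1, and FAS gave 31.2, 59.7 and 45.6 with siCtrl and 80.0, 0 and 8.21 with siASAP1. In both, siASAP1 replicate 1 lay with or above the controls while the other siASAP1 libraries lay apart from them. Neither was called, at a Log2 FC of 1.18 (SE 0.59) and -2.31 (SE 1.32). Without siASAP1 replicate 1, 9 member probes were called in BT549, in a fit that called 22.5% of all probes. They include both probes of TNFRSF1B and both of TNFRSF10B. The added calls were TNFRSF12A at a Log2 FC of 1.81 and CD70 at 1.21, which were higher, and FAS at -3.89 and TNFSF13 at -1.87, which were lower, while TNFRSF19 was no longer called. TNFRSF1A, the TNF receptor with a death domain, was low in BT549, with 17.5, 7.55 and 4.21 with siCtrl and 6.22, 36.8 and 0 with siASAP1.

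**Figure D2:**
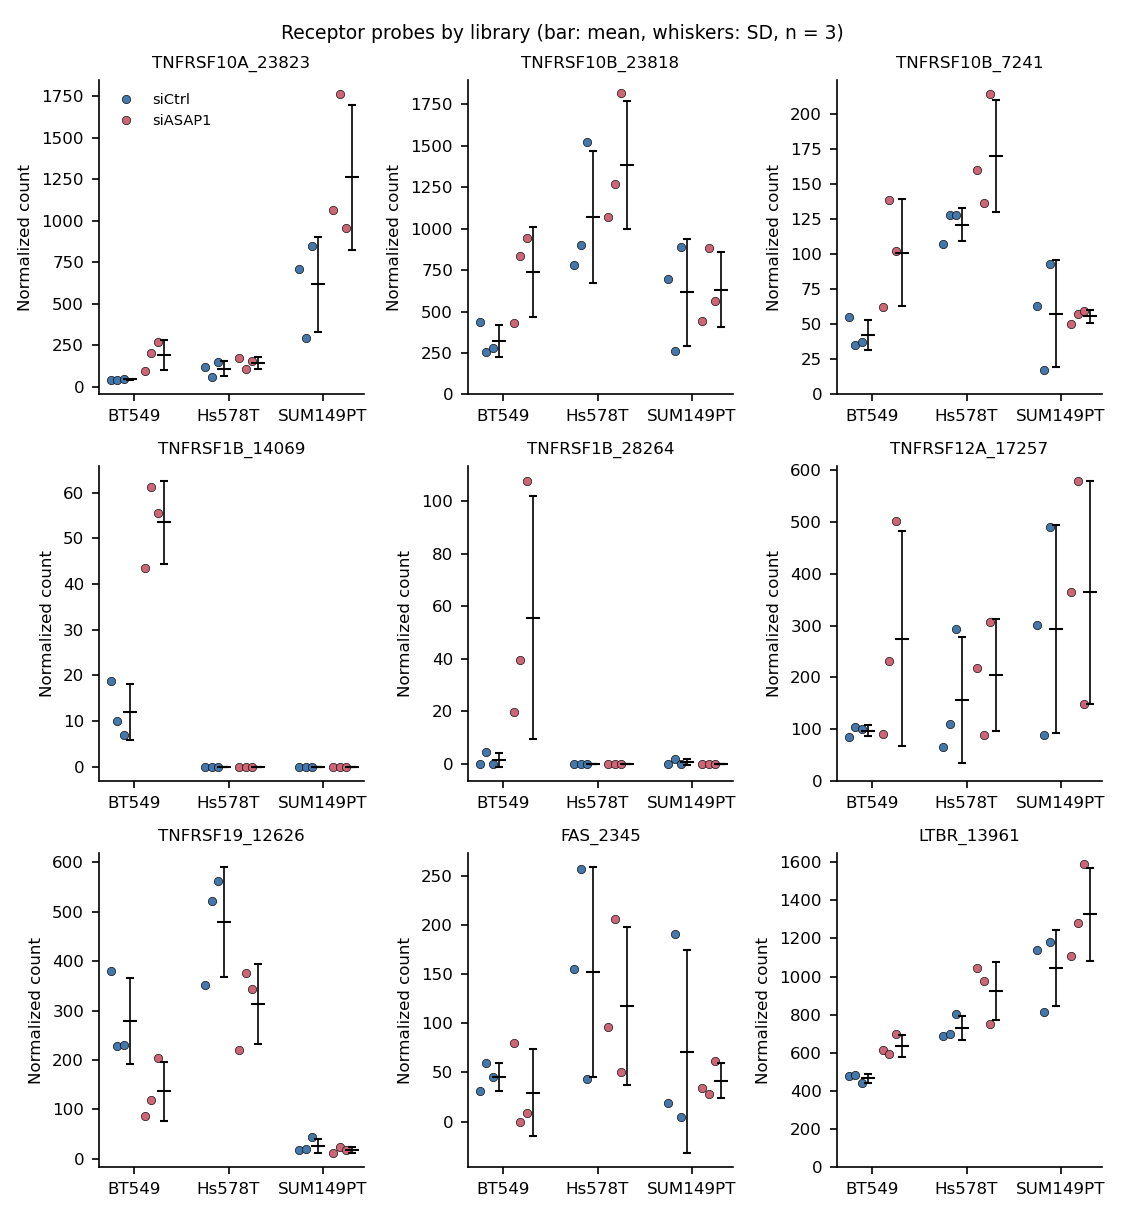
Normalized counts of 9 receptor probes in each library, by cell line, with siCtrl in blue and siASAP1 in red. Horizontal marks are means and whiskers the SD of 3 libraries. The 3 BT549 siASAP1 libraries lay above the controls for TNFRSF10A, TNFRSF10B_7241, LTBR and both TNFRSF1B probes, and below them for TNFRSF19.

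In SUM149PT, TNFSF15 and CD70 were called, both higher. They were 2 of 18 member probes tested, a share close to the 9.56% called among all probes, where 5.27% were called higher. No member passed after adjustment in limma, the smallest adjusted p was 0.086, 2 members had an unadjusted p under 0.05, and 0 of all 10078 probes passed. The median Log2 FC of the members tested was 0.29, against 0.087 over all probes. The summed mesenchymal markers were 9890 to 11800 in the SUM149PT siASAP1 libraries and 5710 to 7080 with siCtrl, and the epithelial ones 29700 to 36700 and 31400 to 55800. Single markers did not move together. Each FN1 probe was higher in every siASAP1 library, while VIM_18185 gave 2908, 1994 and 2965 with siCtrl and 791, 1040 and 955 with siASAP1. Of the epithelial markers, CDH1 and KRT17 were higher and KRT8 lower in every siASAP1 library. The part of these markers in the results of this line was not tested.

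TNFSF15, or TL1A, is the ligand of the death receptor TNFRSF25 and lies at chr9:114784635-114806126. Its counts in SUM149PT were 20.02, 30.1 and 41.6 with siCtrl and 447, 360.2 and 459.9 with siASAP1. All siASAP1 libraries were close to each other and far above every control, including the control that stood apart. The Log2 FC was 3.80 (SE 0.49, adjusted p = 0.086). It was called without each library in turn, at 3.53 to 4.04. In BT549 the same probe gave 0, 8.17 and 4.91 with siCtrl and 17.8, 6.61 and 8.21 with siASAP1, below the minimum for a test. Hs578T had no TNFSF15 read in any library, so that the SUM149PT siASAP1 mean was at least 125-fold higher than the Hs578T siASAP1 libraries against the floor per library. The receptor TNFRSF25 was low in SUM149PT, at 10.01, 13.7 and 0 with siCtrl and 14.6, 5.13 and 26.3 with siASAP1, with a Log2 FC of 1.34 (SE 1.44). In BT549 the same probe was at 8.73, 3.14 and 6.31 with siCtrl and at 0 in every siASAP1 library, below the minimum for a test.

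CD70, the ligand of the lymphocyte receptor CD27, lies at chr19:6583183-6604103. In SUM149PT it had 0, 10.02 and 0 with siCtrl and 46.3, 37.2 and 9.20 with siASAP1. The ranges overlapped, since siASAP1 replicate 3 was just below siCtrl replicate 2. The Log2 FC was 3.57 (SE 1.47, adjusted p = 0.47), it met the minimum only through its siASAP1 libraries, and the call was lost without siASAP1 replicate 1 or 2 or siCtrl replicate 1 or 3, at a Log2 FC of 2.99 to 4.72 over all libraries left out. In BT549 the counts were 115, 62.9 and 72.3 with siCtrl and 67.6, 156 and 224 with siASAP1, with a Log2 FC of 0.72 (SE 0.54) that did not pass. Its receptor CD27 had 14 reads in 2 libraries.

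No receptor was called in SUM149PT. TNFRSF10A was the only receptor whose groups did not overlap, at 709, 296 and 847 with siCtrl and 1065, 1763 and 958 with siASAP1. Its Log2 FC was 1.11 (SE 0.51, adjusted p = 0.51), and it was not called. It was called with library totals alone at 1.33, at 1.11 with no filter or in a single fit of all 18 libraries, and at 1.41 without siCtrl replicate 3. Groups did not overlap for 2 of 18 member probes, both higher, against 17.3% of all probes. TNFRSF10B_23818 gave 698, 261 and 889 with siCtrl and 445, 885 and 566 with siASAP1, and TNFRSF12A gave 300.3, 88.4 and 491 with siCtrl and 365, 579 and 148 with siASAP1. The library siCtrl replicate 2 was the lowest control for TNFRSF10A, both TNFRSF10B probes and TNFRSF12A. It was the highest control for FAS, at 18.6, 190.4 and 4.80 with siCtrl against 34.4, 28.2 and 61.8 with siASAP1. Without it, 2 members were called while the share of all probes called was 23.4%, and TNFRSF10A was not called. TNFSF13, the ligand APRIL, was highest in this line, at 535, 607 and 321 with siCtrl and 299, 426 and 188 with siASAP1, and its Log2 FC of -0.71 (SE 0.48, adjusted p = 0.66) did not pass.

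**Figure D3:**
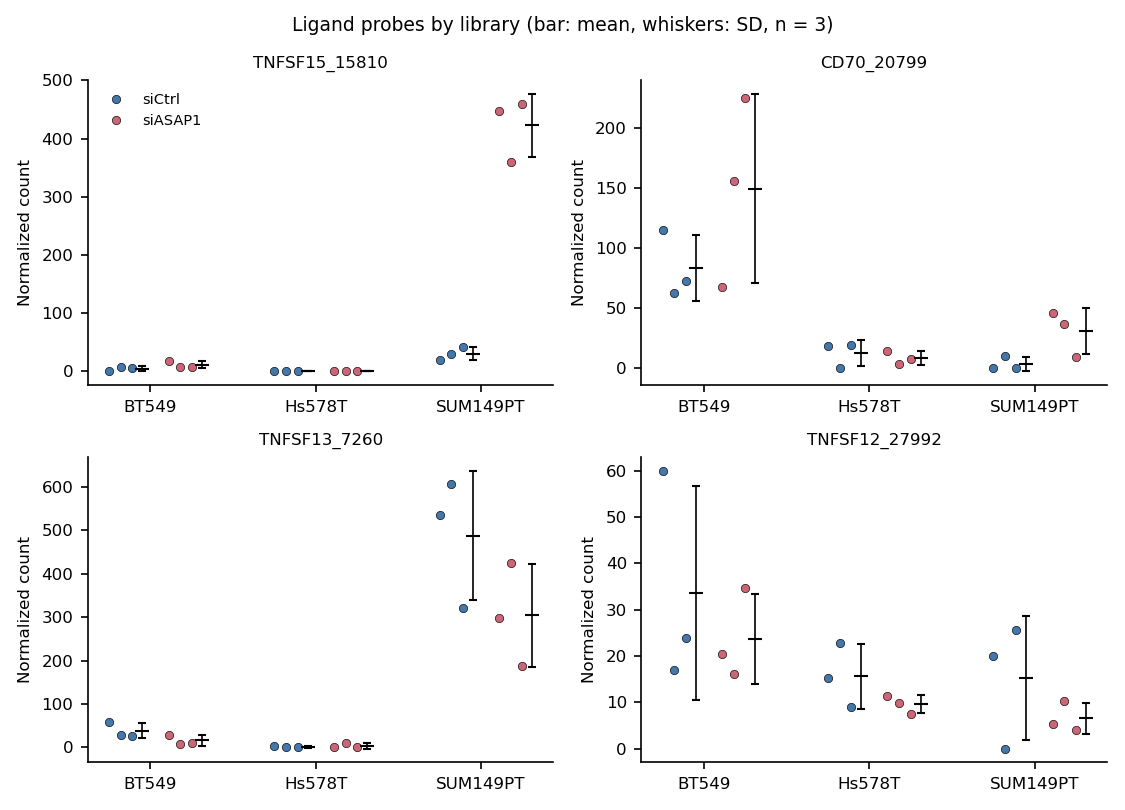
Normalized counts of the 4 ligand probes that met the minimum, in each library by cell line, with siCtrl in blue and siASAP1 in red, means as horizontal marks and SD of 3 libraries as whiskers. TNFSF15 lay between 360.2 and 459.9 in the SUM149PT siASAP1 libraries and at or under 41.6 in all other libraries.

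In Hs578T no member was called. Of the 21 member probes tested 0 passed, and 0 had an unadjusted p under 0.05 in limma or were called with voom weights, while 2.78% of all probes were called. None of all 9500 probes passed after adjustment, and the smallest adjusted p among members was 0.92. The median Log2 FC was 0.36 for members and 0.010 for all probes. The groups did not overlap for 7 member probes, 5 with siASAP1 higher and 2 lower, against 12.1% of all probes. TNFRSF10B_7241 was among those higher, at 107, 128 and 128 with siCtrl and 159.8, 136 and 214 with siASAP1, a Log2 FC of 0.47 (SE 0.33). TNFRSF1A gave 13.5, 26.9 and 16.7 with siCtrl and 36.3, 27.8 and 51.2 with siASAP1, a Log2 FC of 0.99 (SE 0.56). TNFRSF21, the receptor DR6, was lower in each siASAP1 library, at 823, 812 and 607 against 1132, 956 and 1017, a Log2 FC of -0.48 (SE 0.25, adjusted p = 0.92). TNFRSF11B, the secreted decoy osteoprotegerin, gave 17.72, 31.8 and 27.6 with siCtrl and 14.7, 8.09 and 0 with siASAP1, a Log2 FC of -2.31 (SE 1.13, adjusted p = 0.92). The decoy TNFRSF10D gave 19.4, 17.95 and 0 with siCtrl and 21.5, 70.0 and 26.7 with siASAP1, a Log2 FC of 2.28 (SE 1.18). TNFRSF19 had 352, 522 and 562 with siCtrl and 221, 375 and 343 with siASAP1, with overlap, and a Log2 FC of -0.62 (SE 0.33, adjusted p = 0.92). Calls appeared when one library was left out. They were TNFRSF11B without siASAP1 replicate 1 at -3.11, TNFRSF10D without siCtrl replicate 1 at 3.02 and without siCtrl replicate 2 at 2.97, TNFRSF9 without siCtrl replicate 2 at 2.24, and TNFRSF12A without siCtrl replicate 3 at 1.10.

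**Figure D4:**
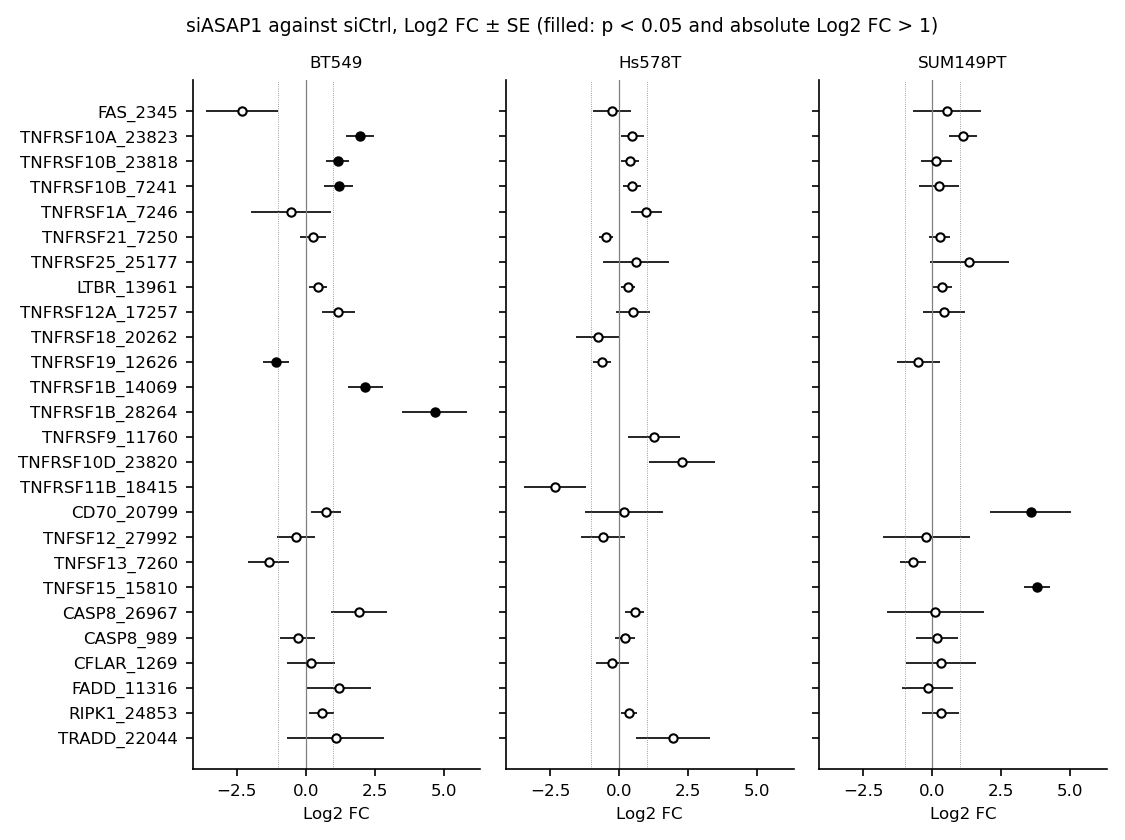
Log2 FC of siASAP1 against siCtrl with its SE for each member probe tested in BT549, Hs578T and SUM149PT, with 3 libraries a group. Filled points passed the limits of 0.05 on p and 1 on the absolute Log2 FC, and dotted lines mark a Log2 FC of -1 and 1. BT549 has 6 filled points, Hs578T none and SUM149PT 2.

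With the cell line as a covariate, TNFRSF10A was the member that passed over 18 libraries, at a Log2 FC of 1.19 (SE 0.30, adjusted p = 0.048) in limma. It was 1 of 21 member probes tested, where 1.74% of all probes passed. In Hs578T its counts were 119, 58.7 and 146 with siCtrl and 176, 104 and 154 with siASAP1, so the 3 lines had a positive Log2 FC, with 1.97, 0.48 and 1.11 in BT549, Hs578T and SUM149PT. The adjusted p stood close to the limit. It was lost in 14 of 18 fits without 1 library and held without SUM149PT siCtrl replicate 3, BT549 siASAP1 replicate 1, Hs578T siASAP1 replicate 2 or Hs578T siCtrl replicate 3, with an adjusted p of 0.029 to 0.1 and a Log2 FC of 1.04 to 1.31. Without SUM149PT siCtrl replicate 2 the adjusted p was 0.076. At an unadjusted p under 0.05 there were 7 member probes, 6 of them higher, against 15.8% of all probes. The other probes were TNFSF15 at 1.78 (SE 0.54), TRADD at 2.04 (SE 0.85), CD70 at 1.49 (SE 0.71), TNFRSF10B_23818 at 0.57 (SE 0.27), LTBR at 0.37 (SE 0.14) and TNFRSF19 at -0.73 (SE 0.26), with adjusted p from 0.1 to 0.31. Of these, TNFSF15 met the minimum only through the SUM149PT siASAP1 libraries, and TRADD only through siASAP1 libraries. The median Log2 FC was 0.57 over the members tested and 0.024 over all probes.

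Differences between the lines in the response were tested by the interaction of cell line and siASAP1. No member of 21 passed after adjustment, where 0.00955% of all probes did, 0 did with voom weights, and 2 members had an unadjusted p under 0.05, where 6.22% of all probes did. These were TNFSF15 (adjusted p = 0.47) and TNFRSF1B_14069 (adjusted p = 0.6). Over 18 libraries TNFSF15 met the minimum only through the SUM149PT siASAP1 libraries, and TNFRSF1B_14069 only through those of BT549. Their interaction values are thus given as a description. The responses of BT549 and SUM149PT were thus not shown to differ in any member after adjustment. Within single lines TNFRSF1B met the minimum in BT549 alone and TNFSF15 in SUM149PT alone.

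The adaptors and effectors of the death receptors were not called in any line. FADD, the adaptor of FAS and the TRAIL receptors, gave 12.5, 2.52 and 15.4 with siCtrl and 6.22, 11.3 and 109 with siASAP1 in BT549, where siASAP1 replicate 3 alone was high, and 62.9, 22.8 and 63.9 with siCtrl and 56.9, 103 and 10.5 with siASAP1 in SUM149PT. RIPK1, the kinase that TNF receptor complexes recruit, gave 222, 262 and 274 with siCtrl and 213, 547 and 452 with siASAP1 in BT549, a Log2 FC of 0.57 (SE 0.44), and 281, 209 and 271 with siCtrl and 303, 292 and 379.6 with siASAP1 in Hs578T, a Log2 FC of 0.36 (SE 0.29). The 2 probes of CASP8, the initiator caspase, had Log2 FC of opposite sign in BT549, at 1.92 (SE 1.02) for CASP8_26967 and -0.29 (SE 0.63) for CASP8_989, and neither passed. CASP8_26967 was called without siCtrl replicate 3, at 2.66. CFLAR, the caspase-8 inhibitor, had a Log2 FC of 0.19 (SE 0.86) in BT549, -0.24 (SE 0.58) in Hs578T and 0.31 (SE 1.28) in SUM149PT by the probe that met the minimum. TRADD was read unevenly, with 0, 0 and 0 with siCtrl and 47.6, 11.5 and 0 with siASAP1 in SUM149PT.

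Other genes of the pathway, a list of 39 that holds TRAF adaptors, IAPs, NF-kB subunits and kinases, and effectors of cell death, were called in the same lines as the members. The list was also chosen with earlier results of these data known. In BT549, 5 of 26 probes tested were called, all higher, against 3.28% of all probes called higher, and the median of the 26 Log2 FC was 0.79 against -0.0015 over all probes. BIRC3, an inhibitor of apoptosis and an NF-kB target, gave 327, 304 and 319 with siCtrl and 3474, 1706 and 1659.9 with siASAP1, a Log2 FC of 2.75 (SE 0.39, adjusted p = 0.054). TRAF1, an adaptor that binds TNFRSF1B, gave 69.9, 185 and 109 with siCtrl and 893, 657 and 1277 with siASAP1, a Log2 FC of 3.01 (SE 0.47, adjusted p = 0.07). RELB, a subunit of the non-canonical NF-kB dimer, gave 48.7, 62.3 and 57.5 with siCtrl and 261, 196 and 299 with siASAP1, a Log2 FC of 2.13 (SE 0.42, adjusted p = 0.2). In these genes the BT549 groups were far apart, and each stayed called whichever library was left out. NFKB2, the partner of RELB, had 4.99, 0 and 0 with siCtrl and 24.9, 31.2 and 55.7 with siASAP1, a Log2 FC of 4.31 (SE 1.17) that rests on few control reads. NFKB2, also among the 5 called, met the minimum only through its siASAP1 libraries, so its call is given as a description. MAP3K14, the kinase NIK that starts the non-canonical pathway, had a Log2 FC of 1.33 (SE 0.54, adjusted p = 0.61), lost without 4 of the 6 libraries: siASAP1 replicates 2 and 3 and siCtrl replicates 1 and 3.

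In SUM149PT, 5 of 30 pathway probes were called, all higher, against 5.27% of all probes called higher, and the median Log2 FC of the 30 was 0.73 against 0.087 over all probes. BIRC3 gave 40.0, 136 and 79.9 with siCtrl and 527, 226 and 895 with siASAP1, a Log2 FC of 2.63 (SE 0.67, adjusted p = 0.33), and TRAF1 gave 78.7, 33.7 and 94.3 with siCtrl and 446, 195 and 294 with siASAP1, a Log2 FC of 2.21 (SE 0.58, adjusted p = 0.33). Both were called without each library in turn. RELB gave 54.3, 59.2 and 55.9 with siCtrl and 126, 139.7 and 119.6 with siASAP1, a Log2 FC of 1.17 (SE 0.46, adjusted p = 0.46), and kept its call only without siCtrl replicate 2. The cell death effectors BID and MLKL were also called. BID_26898 had a Log2 FC of 1.46 (SE 0.60, adjusted p = 0.47), and the call held without siASAP1 replicate 2 or siCtrl replicate 2 and in none of the other 4 fits without a library. MLKL had a Log2 FC of 1.28 (SE 0.47, adjusted p = 0.44), and its call held without siCtrl replicate 2 or 3 and in none of the other 4 such fits. In Hs578T 0 of 24 pathway probes were called and 0 had an unadjusted p under 0.05 in limma. There BIRC3 gave 208, 363 and 162 with siCtrl and 218, 384 and 319.9 with siASAP1, and TRAF1 37.1, 38.3 and 84.7 with siCtrl and 23.8, 61.9 and 82.1 with siASAP1. Over 18 libraries, 2 of 27 pathway probes passed the adjusted p, where 1.74% of all probes did, BIRC3 at 1.92 (SE 0.38, adjusted p = 0.011) and TRAF1 at 1.74 (SE 0.42, adjusted p = 0.042), and 11 had an unadjusted p under 0.05, all higher, where 15.8% of all probes did in either direction. BIRC3 passed without each of the 18 libraries, with an adjusted p of at most 0.03, whereas TRAF1 was lost in 14 of 18.

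Levels in the siCtrl libraries were compared between lines to show where the family differs without ASAP1 silencing. Calls needed an adjusted p under 0.05 with an absolute log2 difference over 1. Each line is set against both others, so the 3 comparisons share libraries. Of member probes, 6 of 18 were called between BT549 and Hs578T, 1 higher in BT549 and 5 lower, where 20.2% of all probes were called and 9.4% were higher. By gene these were 5 of 16. Between SUM149PT and BT549, 5 of 17 were called, 3 higher in SUM149PT and 2 lower, where 15.0% of all were called and 8.21% were higher. Between SUM149PT and Hs578T, 8 of 20 were called, 4 higher in SUM149PT and 4 lower, where 16.2% of all were called and 7.9% were higher. Some of the probes called, named below, met the minimum only through the higher line.

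Among receptors with a death domain, TNFRSF10A was highest in SUM149PT and TNFRSF21 in Hs578T. The siCtrl levels of TNFRSF10A given above put SUM149PT over BT549 by a log2 difference of 3.66 (SE 0.50, adjusted p = 0.0029) and over Hs578T by 2.47 (SE 0.56, adjusted p = 0.025), while BT549 and Hs578T did not differ past the limits, at -1.19 (SE 0.48, adjusted p = 0.11). The call against Hs578T was lost without siCtrl replicate 1 or 3 of SUM149PT or siCtrl replicate 1 or 2 of Hs578T. TNFRSF21 had 71.1, 79.2 and 63.8 in BT549, 1132, 956 and 1017 in Hs578T and 318, 368 and 462 in SUM149PT. The 3 ranges did not overlap, and all pairs were called, at -3.84 (SE 0.30, adjusted p = 6.4e-05) for BT549 against Hs578T, 2.39 (SE 0.38, adjusted p = 0.0054) for SUM149PT against BT549 and -1.45 (SE 0.32, adjusted p = 0.023) for SUM149PT against Hs578T. The last was lost without siCtrl replicate 1 or 3 of SUM149PT or 1 or 2 of Hs578T. TNFRSF10B was lower in BT549 than in Hs578T by both probes, at -1.70 (SE 0.37, adjusted p = 0.011) and -1.51 (SE 0.41, adjusted p = 0.032). The former was lost without BT549 siCtrl replicate 2 or 3, and the latter without these or Hs578T siCtrl replicate 1 or 2. FAS was not called between any lines, and SUM149PT siCtrl replicate 2 held most of its reads there. Without that library FAS was called lower in SUM149PT than in Hs578T, at -3.51 (adjusted p = 0.039). It was also called lower in BT549 than in Hs578T without Hs578T siCtrl replicate 3, at -2.16 (adjusted p = 0.016), or with the siASAP1 libraries added, at -2.455 (adjusted p = 0.029).

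Of the other receptors, TNFRSF19 separated the mesenchymal-like lines from SUM149PT. Its siCtrl counts were 17.2, 20.04 and 43.2 in SUM149PT, and both mesenchymal-like lines were far above that in every siCtrl library. The log2 difference was -3.41 (SE 0.53, adjusted p = 0.0049) from BT549 and -4.20 (SE 0.51, adjusted p = 0.0017) from Hs578T, and both held whichever library was left out. TNFRSF9, the costimulatory receptor 4-1BB, was read mainly in Hs578T, at 88.6, 219 and 8.87, against 1.25, 3.77 and 2.81 in BT549, a difference of -4.07 (SE 1.08, adjusted p = 0.028). The probe met the minimum only through Hs578T. The Hs578T libraries were far apart and the call was held only without Hs578T siCtrl replicate 3. LTBR was read in all lines, at 691, 702 and 805 in Hs578T and 1137, 814 and 1181 in SUM149PT, and was not called. Without SUM149PT siCtrl replicate 2, LTBR was called higher in SUM149PT than in BT549 at 1.31 (adjusted p = 0.0043), as were TNFRSF12A at 1.98 (adjusted p = 0.006), TNFRSF10B_23818 at 1.32 (adjusted p = 0.019) and FADD at 2.81 (adjusted p = 0.036), which brought the count from 5 to 9 in a fit that called 3543 of all 9843 probes. Against Hs578T the count without that library was 11, where 28.3% of all probes were called, with FAS, CFLAR_1269 at -3.75 (adjusted p = 0.026) and TNFRSF9 added, the last at 0 in both SUM149PT siCtrl libraries that remained. Without SUM149PT siCtrl replicate 3 this count was 5, with 11.1% of all probes called, and without Hs578T siCtrl replicate 2 it was 3, with 9.48% called. The decoy TNFRSF11B was at 0 in every siCtrl library of BT549 and SUM149PT, and the Hs578T mean was at least 6.86-fold and at least 5.36-fold higher, respectively, against the floor of 3 reads per library.

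Of the ligands, TNFSF13 was called in each pair of lines. TNFSF13, at chr17:7558292-7561608, where it overlaps the TNFSF12-TNFSF13 readthrough on the same strand, had siCtrl counts of 535, 607 and 321 in SUM149PT, 58.6, 29.6 and 26.7 in BT549 and 3.38, 0 and 0 in Hs578T. The ranges did not overlap in any pair. The log2 difference of SUM149PT from BT549 was 3.67 (SE 0.49, adjusted p = 0.0026) in limma, which held whichever library was left out. Against Hs578T the probe met the minimum only through the higher line. The fitted differences from Hs578T, 8.17 (SE 0.76) for SUM149PT and 4.50 (SE 0.85) for BT549, are thus given as a description. Only 1 of the Hs578T siCtrl libraries held reads, 4 in number, so the size of the differences from Hs578T depends on the pseudocount. With a pseudocount of 0.1 in place of 1 they were 10.49 for SUM149PT and 6.785 for BT549. The second probe, TNFSF13_7259, met the minimum nowhere. TNFSF12, the upstream neighbour that encodes TWEAK, gave 59.9, 17.0 and 23.9 in BT549, 15.2, 22.8 and 8.87 in Hs578T and 20.02, 0 and 25.6 in SUM149PT, which overlapped. CD70 was lower in SUM149PT than in BT549, at -5.20 (SE 1.05, adjusted p = 0.015), a call that held only without SUM149PT siCtrl replicate 2. In that comparison CD70 met the minimum only through BT549. In Hs578T it had 18.6, 0 and 19.7, and BT549 against Hs578T was not called, at 3.46 (SE 1.10, adjusted p = 0.056), but was called without Hs578T siCtrl replicate 2 at 2.02 (adjusted p = 0.047) or replicate 3 at 4.20 (adjusted p = 0.039). TNFSF15 was higher in SUM149PT than in Hs578T already with siCtrl, at least 10.3-fold against the floor per library. It was called, but with Hs578T at 0 the fitted difference is no bound and is not given.

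Of the adaptors, FADD was higher and CASP8_989 lower in SUM149PT than in Hs578T. FADD gave 62.9, 22.8 and 63.9 in SUM149PT and 4.22, 0 and 1.97 in Hs578T, a log2 difference of 4.21 (SE 0.87, adjusted p = 0.016), lost without siCtrl replicate 1 or 3 of SUM149PT or siCtrl replicate 2 of Hs578T. CASP8_989 gave 31.5, 26.4 and 20.8 and 141, 207 and 142, a difference of -2.59 (SE 0.46, adjusted p = 0.0084), lost without Hs578T siCtrl replicate 2. RIPK1 was at 222, 262 and 274 in BT549, 281, 209 and 271 in Hs578T and 277, 71.97 and 323 in SUM149PT, and was not called in any pair. Where the lower line is under the minimum, as for TNFRSF11B, TNFRSF9, TNFSF13, TNFSF15, CD70 and FADD, the probe was tested only through the higher line. Fewer cells that express a gene and less RNA per cell cannot be told apart in these bulk lysates.

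**Figure D5:**
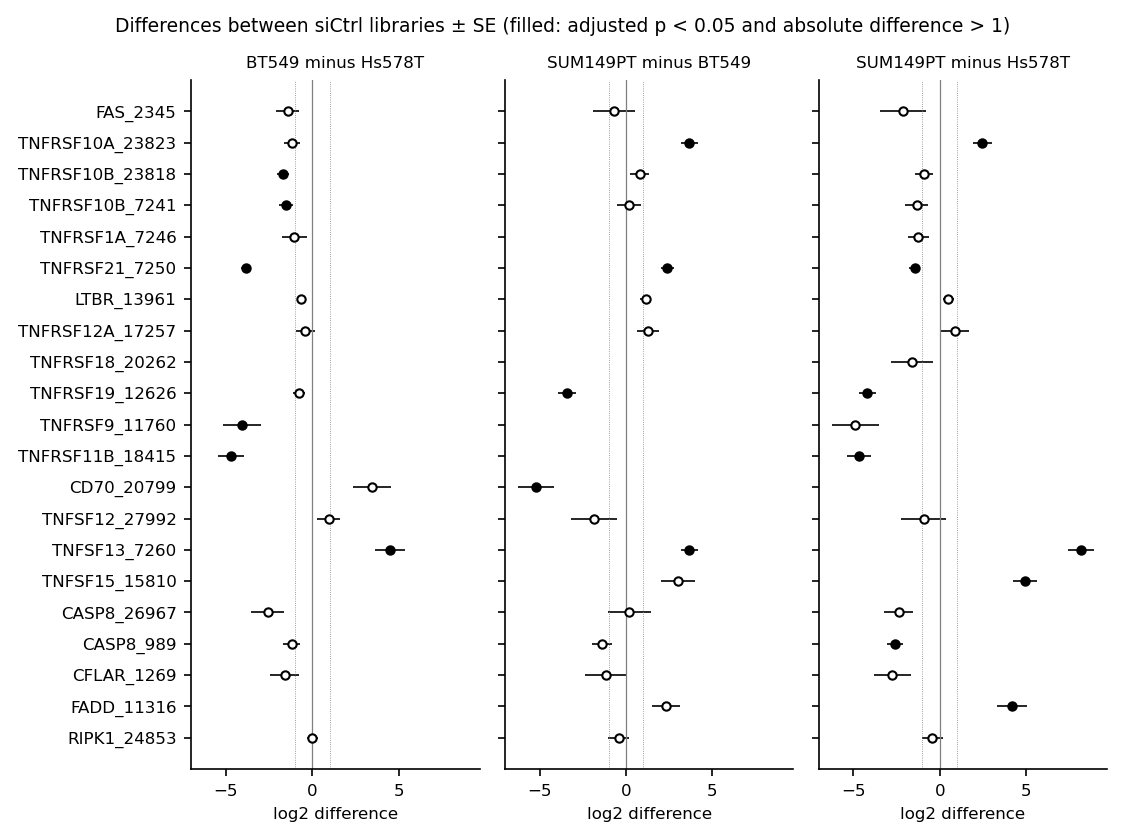
Log2 differences between the siCtrl libraries of each pair of cell lines with their SE, for each member probe tested, with 3 libraries a line. Filled points passed an adjusted p under 0.05 and an absolute difference over 1, which dotted lines mark. TNFSF13_7260 and TNFRSF10A lay to the right in both SUM149PT panels, and TNFRSF19 to the left.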

How the data were processed

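TempO-Seq libraries of BT549, Hs578T and SUM149PT cells were made after siASAP1 or siCtrl. The deposited values are log2(reads/size factor + 1) per probe. Per the labels and the study's methods, the authors demultiplexed reads with bcl2fastq, aligned them with Bowtie and scaled them with DESeq2 size factors. The genome build is not given in the sources used here. Every value (100%, tolerance 0.001) was a whole number of reads after undoing the scale, which gave each library's depth. Log2 values were fitted with limma 3.58.1 (lmFit, eBayes with trend) in R 4.3.3, over the probes whose normalized count averaged 10 or more in the fitted libraries. A siASAP1 comparison within a line called a probe at an unadjusted p under 0.05 with an absolute Log2 FC over 1. The fit over 18 libraries had the line as a covariate, the interaction was an F test, and the siCtrl libraries of 2 lines were compared at a Benjamini-Hochberg adjusted p under 0.05 and a difference over 1. The scripts were tested on simulated data. Named genes were ASAP1, the members called or passing an adjusted p, up to 5 per direction between lines, 16 central members whatever their values and the called pathway genes, while a few further members were named after their values were seen. The members and lists were chosen with earlier results of these data known. Alternatives were other scalings, filters and pseudocounts, voom weights on the recovered reads, other sets of libraries, a replicate block and each library left out. Gene positions are from GENCODE 29 (GRCh38), and promoters from RefSeq. Several genes overlap others on the same or the other strand.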

Additional observations from a re-analysis of the deposited data

How the results depend on the processing

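No called gene named here changed sign under any alternative run. Of the values of named genes under these alternatives, 2506 kept their side of the limits, 128 no longer passed and 69 passed where the reported value did not. In BT549 the count of 6 member probes called was 3 with a minimum of 50, where 7.16% of all probes were called. It was 3 to 9 without 1 replicate, where 3.44% to 22.5% of all probes were called. In Hs578T the count of 0 became 1 with no filter (TNFRSF11A at 2.82) and 1 with all 18 libraries in a single fit, where 2.96% and 2.52% of all probes were called. It was 0 to 2 without 1 replicate, where 1.66% to 6.67% of all probes were called. In SUM149PT the count of 2 became 1 with a minimum of 50, a pseudocount of 0.1 or voom weights, where 10.8%, 8.81% and 8.47% of all probes were called. It was 1 to 2 without 1 replicate, where 4.95% to 23.4% of all probes were called. TNFSF15 stayed called in each of these fits. Over 18 libraries the count of members with an adjusted p under 0.05 was 1, TNFRSF10A. It was 0 with quantile normalization, no filter or a pseudocount of 0.1, where 1.24%, 0.621% and 1.55% of all probes passed. With voom weights it was 2, where TNFSF15 also passed (adjusted p = 0.0046) and 2.05% of all probes did. TNFSF15 met the minimum there only through the SUM149PT siASAP1 libraries. It was 0 to 1 without 1 replicate, where 0.942% to 1.97% of all probes passed. Between lines, adding the siASAP1 libraries raised the count from 6 to 14 for BT549 against Hs578T, from 5 to 9 for SUM149PT against BT549 and from 8 to 14 for SUM149PT against Hs578T, while the share of all probes called rose from 20.2% to 34.0%, 15.0% to 25.6% and 16.2% to 36.1%. The last count was 5 with a minimum of 50, where 15.4% of all probes were called. Without 1 replicate these counts were 4 to 7, 4 to 9 and 3 to 11. Fits with voom weights on the recovered reads called 610, 201 and 854 probes of the whole table in BT549, Hs578T and SUM149PT, against 674, 264 and 963. The cause of these shifts was not tested.

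The labels do not say whether libraries with the same replicate number were paired. The correlation of the deviations of such libraries from their group means ran from -0.35 to 0.109 in BT549, 0.099 to 0.352 in Hs578T and -0.647 to -0.318 in SUM149PT. With the replicate block, BT549 kept 3 called member probes, those of TNFRSF1B and TNFRSF10A, and the share of all probes called went from 6.97% to 6.11%. Hs578T then had 2 called members, while its share of all probes rose from 2.78% to 4.58%. For SUM149PT the block left 1 called member, and the share of all probes fell from 9.56% to 3.48%. Over 18 libraries 0 members passed with the block, and the share of all probes passing fell from 1.74% to 0.325%. In that fit BIRC3 was at an adjusted p of 0.072 and TRAF1 at 0.12. The SUM149PT calls of BID_26898, MLKL and RELB did not pass with the block. With 3 libraries a group and few reads for most ligands, differences in the members near the floor of 3 reads could not be detected.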
